A study of Mus musculus with 6 samples.

Results

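The genes described are 8 members of the VEGF family of mouse, chosen by name from the 54532 genes of the deposited count table. They comprise 4 ligands (Pgf, Vegfa, Vegfb and Vegfc), 2 receptor tyrosine kinases (Flt1, also called VEGFR1, and Kdr, also called VEGFR2) and 2 co-receptors (Nrp1 and Nrp2, the neuropilins). RNA was sequenced from cells of 2208L, a transplantable mammary tumour known from other work to descend from Trp53-null mammary gland, carried by Balb/c mice. For CTC, 3 libraries were made of tumour cells recovered from the circulation and then propagated. For PT, 3 libraries were made of the tumour cell fraction of dissociated primary tumours. Same-numbered libraries came from matched mice, all without treatment. Propagation is stated for CTC alone, so it cannot be told apart from origin, and the labels give neither the method of enrichment nor whether mice were pooled. The same-numbered CTC and PT libraries are called pairs 1, 2 and 3 here.

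VEGF ligands are secreted dimers that act chiefly on endothelial cells, the lining of blood and lymph vessels. Vegfa signals through Kdr to drive vessel growth and also binds Flt1, which holds ligand tightly and signals weakly. Placental growth factor (Pgf) and Vegfb bind Flt1 and not Kdr, whereas Vegfc acts mainly on Flt4 (VEGFR3) of lymphatic vessels. Neuropilins bind VEGF ligands and class 3 semaphorins, have no kinase of their own, and are found on many carcinoma cells as well as on endothelium and neurons. In mammary tumours, tumour cells are a known source of VEGF ligands.

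Library totals ranged from 23845953 to 27897320 counts, so that 3 counts, taken as the limit of detection, were worth 0.108 to 0.126 CPM (counts scaled to the library total). That limit covers counting error only, because without molecular identifiers the same molecule can be read repeatedly. Epithelial markers were high in both groups: Epcam was at 240.2 ± 60.0 CPM in CTC versus 268.7 ± 82.6 CPM in PT, and Krt8 at 1708 ± 680 and 2243 ± 554 CPM (SD, n = 3 each). Endothelial transcripts were scarce. Pecam1 had at most 22 counts in a library and Cdh5 at most 48. In bulk RNA, fewer cells of a type and less RNA per cell cannot be told apart.

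The members were chosen with the CTC against PT contrast already known: Pgf had passed the test of DESeq2 in it, and its relatives came with it. The differences between CTC and PT given below therefore describe these libraries and are not independent tests. The edgeR quasi-likelihood fit covered 13874 genes and called 0 of them at a Benjamini-Hochberg adjusted p under 0.05 (0%), with 919 genes at an unadjusted p under 0.05. limma-voom also called 0 genes. DESeq2 called 89 of 15599 genes (0.571%), and 241 of 14276 (1.69%) with the matched pair as a block. On data simulated with the spread of these libraries DESeq2 called more unchanged genes than edgeR, and most with the block. That spread was the one edgeR estimated, and no pair effect was simulated. The simulation therefore cannot judge the block on paired libraries. Of the 8 members, 7 passed the filter on low counts and were in the fit. Kdr did not.

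Compared per length, as CPM per kilobase of gene length (RPKM), 3 members stood well above the rest. Over the 6 libraries Vegfb averaged 30.6 RPKM, Vegfa 27.6 RPKM and Nrp2 20.4 RPKM. The ranges of these 3 overlapped, at 24.8 to 37.4, 20.5 to 40.9 and 9.59 to 33.1 RPKM. Pgf averaged 5.62 RPKM and Vegfc 4.62 RPKM, and their order differed by group. In CTC Vegfc was at 7.50 ± 5.91 and Pgf at 1.77 ± 1.17 RPKM, and in PT Pgf was at 9.48 ± 1.57 and Vegfc at 1.73 ± 1.96 RPKM. Flt1 and Nrp1 were lower, at means of 1.21 and 1.06 RPKM, and their ranges overlapped with each other and with those of Pgf and Vegfc. Kdr was last at 0.0054 RPKM. The ligands and Nrp2 thus made up nearly all of the family's RNA per length, and the receptor kinases little of it.

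**Figure D1:**
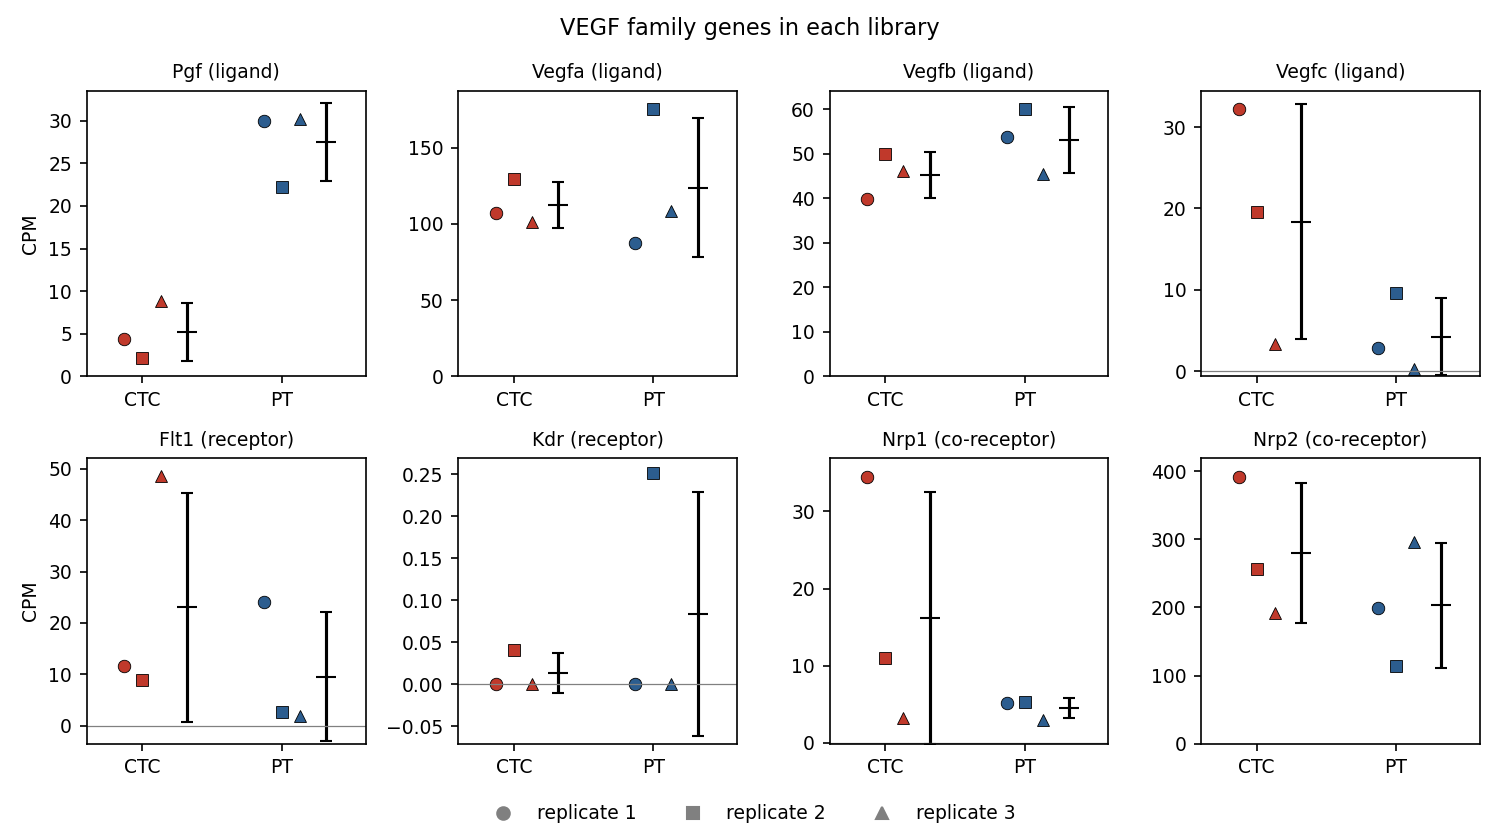
Level of each of the 8 VEGF family genes in CPM (vertical axis, linear, a separate scale per gene) in the CTC and PT libraries, with the symbol giving the replicate and the black bar the group mean with its SD (n = 3). Pgf is the gene whose groups lie apart, from 2.16 to 8.85 CPM in CTC and from 22.3 to 30.2 CPM in PT.

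Pgf lies on the minus strand of chromosome 12 at chr12:85166635-85177790 (GRCm38, ENSMUSG00000004791). Its RNA was at 4.41, 2.16 and 8.85 CPM in CTC replicates 1, 2 and 3 (123, 53 and 212 counts), and at 30.03, 22.3 and 30.2 CPM in PT replicates 1, 2 and 3 (822, 531 and 722 counts). All PT libraries lay above all CTC libraries, and the lowest PT library stood well clear of the highest CTC library. The mean was 5.14 ± 3.40 CPM in CTC versus 27.5 ± 4.54 CPM in PT. The log2 fold change (CTC minus PT) was -2.50, with an SE of 0.51 and a 95% interval of -3.69 to -1.32 in the edgeR fit.

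The level of Pgf was steady in PT, where the highest library was 1.36 times the lowest, and less so in CTC, where the ratio was 4.09. Within the pairs the log2 difference was -2.83, -3.32 and -1.84 for pairs 1, 2 and 3. Pgf was lower in the CTC library of each pair. Leaving out single libraries kept the fold change between -3.09 (without CTC replicate 3) and -2.16 (without CTC replicate 2). The adjusted p for Pgf was 0.726 in edgeR (0.592 when the replicate block was added), 0.00093 in DESeq2 and 1.44e-06 in DESeq2 with the block. These p-values come from the contrast that brought Pgf forward.

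Of the 7 members in the fit, Pgf was the 1 without overlap between the groups (14.3%), against 12.1% of all genes tested, and 6.16% with CTC below PT as for Pgf. The sum of the endothelial markers was also lower in CTC: the 16 genes together were at 5.55 to 9.60 CPM in CTC and 12.3 to 18.2 CPM in PT. Of the 4 tested markers, 3 had a lower mean in CTC, and Eng did not (1.34 ± 0.63 versus 1.29 ± 0.81 CPM in PT). Markers below the filter ran both ways. Tie1 was at 0.76 ± 0.90 CPM in CTC versus 0.07 ± 0.13 CPM in PT, and Cdh5 at 0.57 ± 0.99 and 0.19 ± 0.24 CPM. Pecam1 was lower in CTC, at 0.13 ± 0.11 and 0.34 ± 0.42 CPM. Egfl7, which tumour cells can also express, was at 3.00 ± 1.97 CPM in CTC versus 6.35 ± 1.97 CPM in PT, without overlap. Ecscr was at 0.945 ± 1.43 and 3.25 ± 2.73 CPM and Plvap at 0.241 ± 0.153 and 2.17 ± 1.90 CPM, both with overlap, and their log2 fold changes of -1.87 and -3.20 exceeded the -1.17 of Egfl7 in size. In PT replicate 3 Ecscr gave 6.07, Egfl7 5.19 and Plvap 4.02 CPM of the 18.2 CPM, while Erg, Cldn5, Sox17 and Robo4 had 0 counts in every library. Their part in the difference of Pgf was not tested. The 36 tested genes within 1 Mb of Pgf did not share its pattern: their median deviation per library lay between -0.11 and 0.08 on the log2 scale, and 17 of them had a lower and 19 a higher mean in CTC.

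Vegfa, the main angiogenic ligand (chr17:46016993-46032369, minus strand, ENSMUSG00000023951), was at 107.3, 129.6 and 101.0 CPM in CTC replicates 1, 2 and 3, and at 87.7, 175.3 and 108.4 CPM in PT. The groups overlapped, and PT replicates 1 and 2 held the lowest and the highest value. The log2 fold change was -0.18 (SE 0.32, 95% interval -0.92 to 0.56, edgeR adjusted p = 0.883). It was 0.14 without PT replicate 2. Counts per gene do not separate the splice forms of Vegfa that differ in binding to matrix.

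Vegfb, a ligand of Flt1 linked to fatty acid uptake and cell survival more than to vessel growth (chr19:6982473-6987651, minus strand, ENSMUSG00000024962), was the steadiest member. It was at 39.8, 49.9 and 46.1 CPM in the CTC libraries, against 53.8, 60.0 and 45.4 CPM in PT. The highest library was 1.51 times the lowest. Its log2 SD within groups was 0.21, and 8.79% of the 9712 genes averaging 3 or more in log2 CPM had a smaller one. Vegfb was lower in CTC in each pair, with differences of -0.52, -0.27 and -0.06 on the log2 scale, and the fit put it at -0.29 (SE 0.26, 95% interval -0.89 to 0.32, edgeR adjusted p = 0.793).

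Vegfc, the lymphatic ligand (chr8:54077606-54187096, plus strand, ENSMUSG00000031520), varied most. It was at 32.2, 19.6 and 3.34 CPM in CTC replicates 1, 2 and 3 (898, 480 and 80 counts), and at 2.85, 9.56 and 0.293 CPM in PT replicates 1, 2 and 3 (78, 228 and 7 counts). CTC replicates 1 and 2 were the highest, while CTC replicate 3 lay below PT replicate 2, so the groups overlapped. Over all libraries the highest value was 110-fold the lowest, and 97.9% of those 9712 genes had a smaller SD within groups.

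In each pair, however, Vegfc was higher in CTC, by 3.38, 1.03 and 3.12 on the log2 scale. The fit gave a log2 difference of 2.07 with an SE of 1.16 (95% interval -0.61 to 4.76). Adjusted p-values were 0.726 in edgeR and 0.831 in DESeq2, and 0.762 and 0.00276 in the same tools with the replicate block, so that a call was made by DESeq2 with the block and not by the others. Leaving out CTC replicate 1 lowered the fold change to 1.41, and leaving out PT replicate 2 raised it to 3.44. Among the genes in the fit 30.7% had the same direction in all 3 pairs, and 4 of the 7 members (57.1%) did: Pgf and Vegfb were lower, and Vegfc and Nrp1 higher, in CTC.

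**Figure D2:**
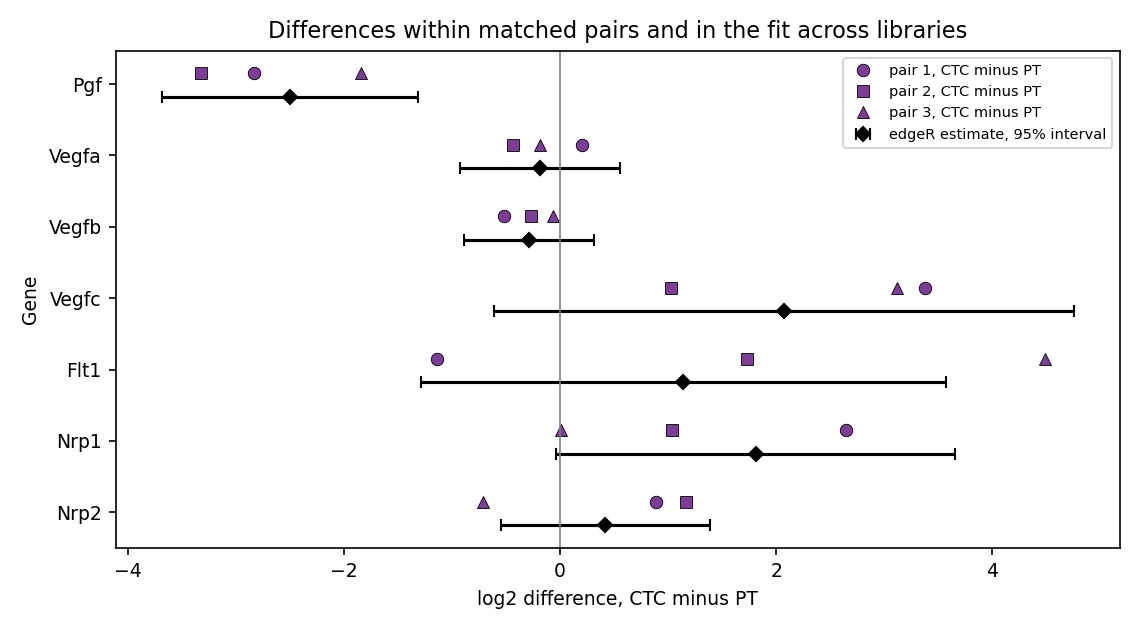
Log2 difference (CTC minus PT, horizontal axis) for the 7 tested VEGF family genes, with coloured symbols for the 3 matched pairs and a black diamond with its 95% interval for the edgeR estimate over all libraries. All 3 pairs lie on 1 side for Pgf, Vegfb, Vegfc and Nrp1, with pair 3 close to 0 for Vegfb and Nrp1, and on both sides for Vegfa, Flt1 and Nrp2.

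The groups overlapped in the summed RNA of the ligands and lay apart in the share of Pgf. Summed per-length levels of the 4 ligands were 64.5, 70.1 and 56.7 RPKM in CTC and 65.5, 89.9 and 64.1 RPKM in PT. Vegfa and Vegfb made up most of it in every library. Pgf contributed 2.36%, 1.06% and 5.38% in CTC replicates 1, 2 and 3, and 15.8%, 8.53% and 16.2% in PT replicates 1, 2 and 3. Vegfc contributed 20.4%, 11.4% and 2.41% in CTC and 1.78%, 4.34% and 0.187% in PT. Relative to Vegfa, Pgf stood at 2.46% to 12.9% of its RPKM in CTC and at 18.7% to 50.6% in PT, without overlap. The share and this ratio hold the same Pgf values as above, so their separation is no further result.

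**Figure D3:**
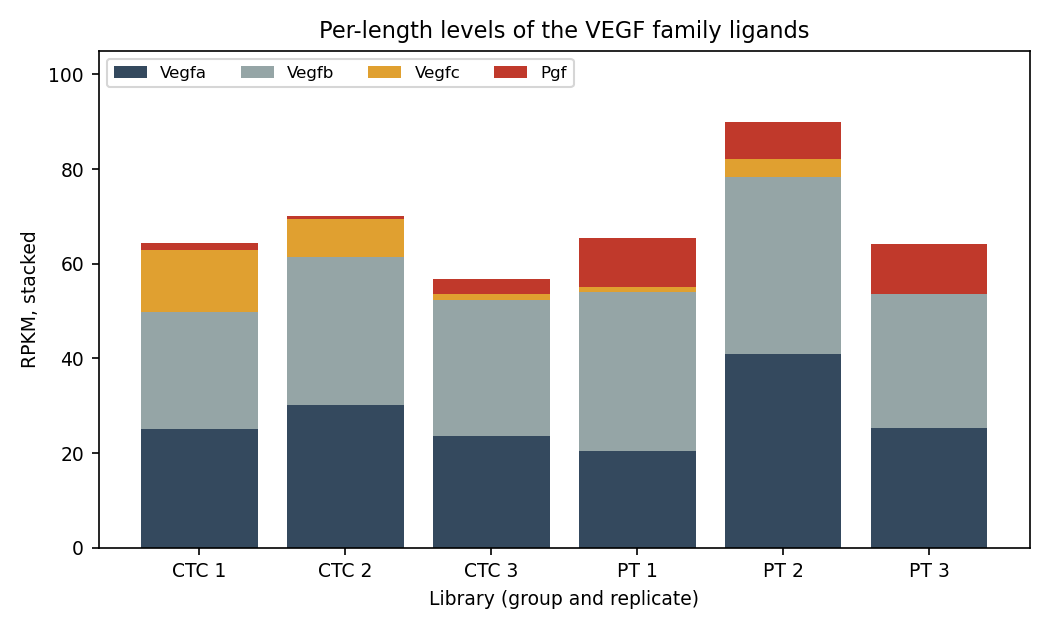
Per-length levels of Vegfa, Vegfb, Vegfc and Pgf in RPKM, stacked (vertical axis, from 0), in each CTC and PT library. The Pgf band is thickest in the 3 PT libraries, at 7.67 to 10.4 RPKM, and the Vegfc band in CTC replicates 1 and 2, at 13.1 and 8.001 RPKM.

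Of the receptor kinases, Kdr (chr5:75932827-75978458, minus strand, ENSMUSG00000062960), the main signalling receptor of endothelium, had 7 counts in all. It had 0 counts in 4 libraries, 1 count in CTC replicate 2 and 6 counts in PT replicate 2, or 0.252 CPM. A count of 0 allows up to 3 counts, at most 0.126 CPM. No difference was detectable at this depth. Flt4, the receptor of Vegfc, was as low, with 0 to 7 counts per library.

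Flt1 (chr5:147561604-147726011, minus strand, ENSMUSG00000029648), the receptor of Pgf, Vegfb and Vegfa, was present and uneven. It was at 11.6, 8.82 and 48.7 CPM in CTC replicates 1, 2 and 3, and at 24.1, 2.60 and 1.97 CPM in PT replicates 1, 2 and 3. CTC replicate 3 and PT replicate 1 were the highest, so each group held 1 library far above its others. Within pairs the log2 difference was -1.14, 1.73 and 4.49. The log2 fold change was 1.14 (SE 1.05, 95% interval -1.29 to 3.57, edgeR adjusted p = 0.794), and DESeq2 gave no adjusted p. It moved to 0.04 when CTC replicate 3 was left out, to 3.26 when PT replicate 1 was, and to 0.67 and 0.65 for PT replicates 2 and 3.

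Flt1 is best known in endothelium and in some macrophages. In CTC replicate 3 the endothelial list summed to 9.60 CPM, the highest of the CTC libraries (5.55 and 7.10 CPM in the others). Egfl7 gave 5.26 and Ecscr 2.59 CPM of it, while Pecam1 had 5 counts and Cdh5 and Tie1 had 0. Cdh5 and Tie1 were highest in CTC replicate 1, with 48 and 49 counts. In PT replicate 1 the endothelial list summed to 12.3 CPM, the lowest of the PT libraries, of which Egfl7 gave 8.62 CPM. Cdh5 had 3 counts there and Pecam1 22, its most in any library. The macrophage marker Csf1r had 5 counts in CTC replicate 3 and 2 in PT replicate 1. It was highest in CTC replicate 2, with 488 counts, and Adgre1 and C1qa had 0 in all libraries. Of the fibroblast and pericyte list, Col3a1 had 3184 counts in CTC replicate 3 and Dcn 1147 in PT replicate 1. These were the highest values of both genes. Dcn, however, had 10 counts in CTC replicate 3 and 796 in CTC replicate 2, and Col3a1 had 108 in PT replicate 1. Pdgfrb had 21 counts in CTC replicate 3, 80 in PT replicate 1 and its highest, 204, in CTC replicate 2. Col1a1 had 11 counts in CTC replicate 3 and its highest, 44, in PT replicate 1. The part of any of these cell types in the level of Flt1 was not tested. Gene counts do not separate the membrane form of Flt1 from its soluble form.

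Nrp2 (chr1:62703285-62818695, plus strand, ENSMUSG00000025969), a co-receptor for Vegfc and Vegfa and a receptor of Sema3f, was the member with the most counts, from 2707 to 10931 per library. It was at 391.8, 256.1 and 191.8 CPM in the CTC libraries, against 199.3, 113.5 and 296.6 CPM in PT. The groups overlapped, with CTC replicate 1 highest and PT replicate 2 lowest. The log2 fold change was 0.42 (SE 0.42, 95% interval -0.55 to 1.39, edgeR adjusted p = 0.813), and it moved to 0.10 when CTC replicate 1 was left out, to 0.12 for PT replicate 2 and to 0.76 for PT replicate 3. The overlapping gene Gm37121 and the antisense gene Gm29083 had at most 25 and 8 counts.

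Nrp1 (chr8:128358604-128503363, plus strand, ENSMUSG00000025810), the co-receptor of Kdr for Vegfa and a receptor of Sema3a, was much lower. It was at 34.5, 10.9 and 3.17 CPM in CTC replicates 1, 2 and 3, against 5.15, 5.28 and 2.97 CPM in PT replicates 1, 2 and 3. CTC replicates 1 and 2 lay above all PT libraries, and CTC replicate 3 lay among them. The log2 fold change was 1.81 (SE 0.80, 95% interval -0.04 to 3.66, edgeR adjusted p = 0.726). Without CTC replicate 1 it was 0.63.

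CTC replicates 1 and 2 were thus the highest libraries for both Vegfc and Nrp1. Both genes lie on chromosome 8, but far apart, with starts at 54077606 and 128358604. The 3 tested genes within 1 Mb of Vegfc deviated by a median of 1.18 (log2) in CTC replicate 1, beside 2.58 for Vegfc itself, and of -0.11 in CTC replicate 2, beside 1.91. For the 5 neighbours of Nrp1 the medians were 0.47 and 0.22, beside 2.31 and 0.71 for Nrp1. The part of the neighbourhood in either level was not tested. Nrp2 exceeded Nrp1 in every library, from 9.38-fold (CTC replicate 1) to 82.4-fold (PT replicate 3) per length.

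RefSeq promoter sequences (GRCm38.p6, the build of the count table) were found for all 8 members and were searched on both strands in the 250 bases before the start for the hypoxia response element cores ACGTG and GCGTG, the cAMP response element TGACGTCA, the GC box GGGCGG and the metal response element cores TGCGCNC and TGCACNC. The sequences of Pgf, whose groups lay apart, of Vegfc and Flt1, which varied most between libraries, and of Vegfb, which varied least, are shown 5′ to 3′ on the strand of the gene, with matches on either strand in capitals. For Pgf 30 bases around its GCGTG match are shown, because the window lies within an exon of a longer GENCODE transcript. The others are the 250 bases before the start.
Pgf, chr12:85177421-85177450, minus strand: cgccctgcggggtCACGCgcactcaggtct
Vegfb, chr19:6987652-6987901, minus strand: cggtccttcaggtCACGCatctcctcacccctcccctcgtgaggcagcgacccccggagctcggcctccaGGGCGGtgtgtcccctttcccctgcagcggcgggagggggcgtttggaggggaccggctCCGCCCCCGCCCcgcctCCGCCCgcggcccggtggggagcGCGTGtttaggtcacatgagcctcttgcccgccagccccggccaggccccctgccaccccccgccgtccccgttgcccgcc
Vegfc, chr8:54077282-54077531, plus strand: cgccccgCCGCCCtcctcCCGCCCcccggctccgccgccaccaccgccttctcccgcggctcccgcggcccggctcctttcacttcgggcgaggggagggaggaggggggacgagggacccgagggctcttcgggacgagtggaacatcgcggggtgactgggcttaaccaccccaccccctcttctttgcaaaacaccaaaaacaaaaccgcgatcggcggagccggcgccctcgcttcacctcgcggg
Flt1, chr5:147726012-147726261, minus strand: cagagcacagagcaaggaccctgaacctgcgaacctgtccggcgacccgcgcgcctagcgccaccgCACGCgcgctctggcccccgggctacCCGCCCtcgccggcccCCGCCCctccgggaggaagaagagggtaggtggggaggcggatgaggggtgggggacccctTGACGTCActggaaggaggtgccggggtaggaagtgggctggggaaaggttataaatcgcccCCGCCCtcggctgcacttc

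The full windows of these 4 genes were rich in G and C, from 68.4% in Pgf to 76.4% in Vegfb. The full Pgf window held 1 GCGTG match, 124 to 120 bases before the start, and 2 GC boxes. RefSeq gives Pgf a second start, whose window (chr12:85175983-85176232, 66.4% G and C) held no match to any of the motifs. Vegfb held 2 GCGTG matches and 4 GC boxes, of which a pair abut. Vegfc held 2 GC boxes and no match to the hypoxia cores. Flt1 held 1 GCGTG match, 3 GC boxes and the cAMP response element, 81 to 74 bases before the start. Of 32851 promoter windows of the same length, 28.2% held GCGTG, 16.6% ACGTG, 32.7% GGGCGG, 12.5% TGCGCNC and 10.4% TGCACNC, and 1.55% held TGACGTCA. Flt1 was the only member with the last of these. The matches describe the letters of these windows and not binding.

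Genes around the VEGF pathway were described in lists. No listed gene passed the edgeR test, against 0% of all genes tested, and the median log2 fold change of all 13874 genes was 0.05. Of the other family genes, Vegfd, a lymphatic ligand close to Vegfc, had 278 counts in CTC replicate 3 and 0 to 6 in the others, and like Flt4 it was below the filter.

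Neuropilin partners were led by Sema3f, Plxna1 and Sema3c. Of 12 semaphorins and plexins 6 were in the fit, 3 with a higher and 3 with a lower mean in CTC (median -0.23). Sema3f, a ligand of Nrp2 that opposes vessel growth, was at 118.8 ± 14.1 CPM in CTC versus 187.2 ± 40.9 CPM in PT, without overlap (log2 fold change -0.71, adjusted p = 0.726 in edgeR). Plxna1, a signalling partner of neuropilins, was at 139.8 ± 54.6 and 194.2 ± 77.6 CPM. Plxnd1, a plexin best known in endothelium, was at 25.0 ± 17.9 and 8.48 ± 0.36 CPM, and Sema3c at 83.9 ± 40.1 and 70.8 ± 23.1 CPM.

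Enzymes that process VEGF ligands passed the filter on low counts for 4 of 7 genes. Pcsk5, a proprotein convertase, had 2, 5 and 17 counts in the CTC libraries, against 11, 250 and 720 in PT, so PT replicate 1 lay below CTC replicate 3. It was the 1 gene of the 4 tested that DESeq2 called (adjusted p = 0.0461, and 0.726 in edgeR), against 0.571% of all genes. Furin, the convertase best known for cutting pro-Vegfc, was at 157.9 ± 31.9 and 133.8 ± 26.0 CPM, and Pcsk7 at 50.9 ± 4.24 and 57.5 ± 14.9 CPM. Ccbe1, which assists the cleavage of Vegfc, had 123 and 45 counts in CTC replicates 1 and 2, the libraries highest in Vegfc, and at most 7 elsewhere. Adamts3, of the same list, ran otherwise, with 0, 25 and 52 counts in CTC replicates 1, 2 and 3. In PT replicates 1, 2 and 3 it had 34, 24 and 47 counts. The relation of either gene to Vegfc was not tested.

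Signal transducers downstream of the receptors were broadly expressed. Of 18 genes 17 were in the fit, 8 with a higher and 9 with a lower mean in CTC (median -0.12), or 7 and 10 with RLE or upper-quartile scaling. Mapk3, a MAP kinase, was at 118.6 ± 21.7 CPM in CTC versus 208.3 ± 83.1 CPM in PT, and Prkca, a protein kinase C, at 46.9 ± 8.85 and 35.0 ± 17.7 CPM.

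The hypoxia-inducible factors (HIF) control Vegfa in many cells. Of 14 tested HIF targets 11 had a lower mean in CTC (median -0.31), and 12 did with RLE or upper-quartile scaling, against 45.9% of all genes tested. None passed edgeR or DESeq2, which gave no adjusted p for Car9. After TMM scaling the groups of 3 targets (Car9, Egln3 and Ldha) lay apart with CTC below PT, as for 6.16% of all genes tested. Ldha was at 1895 ± 648 CPM in CTC versus 3741 ± 1446 CPM in PT (log2 fold change -1.05). Car9, a carbonic anhydrase of hypoxic tumours, had 115 to 131 counts in CTC, against 1836, 127 and 136 in PT replicates 1, 2 and 3. In CPM its groups lay apart, at 4.70 to 4.80 in CTC against 67.1, 5.33 and 5.70 in PT. The size of its difference rested on PT replicate 1. PT replicate 1, the highest in Car9, was the lowest library in Vegfa. PT replicate 1 was also the highest library in Ldha (5390 CPM), in Pgk1 (2231 CPM) and in the sum of the list (8630 CPM). Most of that sum came from Ldha and Pgk1. Slc2a1 and Bnip3 were highest in CTC replicate 3, at 215.6 and 60.1 CPM. This concerns 1 library, and the part of hypoxia in the level of Vegfa was not tested. Egln3, a HIF prolyl hydroxylase that is also a HIF target, was at 14.3 ± 15.8 CPM in CTC versus 55.2 ± 27.5 CPM in PT, with a log2 fold change of -2.05. Its groups lay apart after TMM scaling and touched in CPM, where CTC replicate 3 with 771 counts was above PT replicate 3 with 732. Ero1l, an oxidase of protein folding, was at 54.9 ± 24.7 and 46.5 ± 6.10 CPM, and Bnip3l, of mitophagy, at 73.2 ± 11.7 and 68.2 ± 23.1 CPM.

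Among the 8 oxygen sensing genes, a list that also holds Egln3, 5 had a lower mean in CTC (median -0.19). Hif1a was at 116.6 ± 57.1 CPM in CTC versus 83.9 ± 5.75 CPM in PT, and its partner Arnt at 81.3 ± 46.0 and 65.9 ± 8.80 CPM. Epas1, which encodes HIF-2 alpha, was at 12.5 ± 12.3 and 28.9 ± 22.5 CPM. The groups overlapped for each of these 3.

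Other angiogenic factors were divided, with 5 of 10 tested genes on each side (median -0.02), or 6 lower and 4 higher with upper-quartile scaling. Thbs1, whose product thrombospondin 1 inhibits vessel growth, was at 979.5 ± 636 CPM in CTC versus 393.8 ± 173 CPM in PT, and Angptl4, a secreted lipase inhibitor, at 34.7 ± 31.5 and 9.06 ± 6.99 CPM. Angpt1, a ligand that stabilises vessels, was at 6.24 ± 6.12 and 10.95 ± 5.43 CPM, and Pdgfa at 41.7 ± 12.5 and 46.9 ± 16.5 CPM. None of these passed edgeR or DESeq2.

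**Figure D4:**
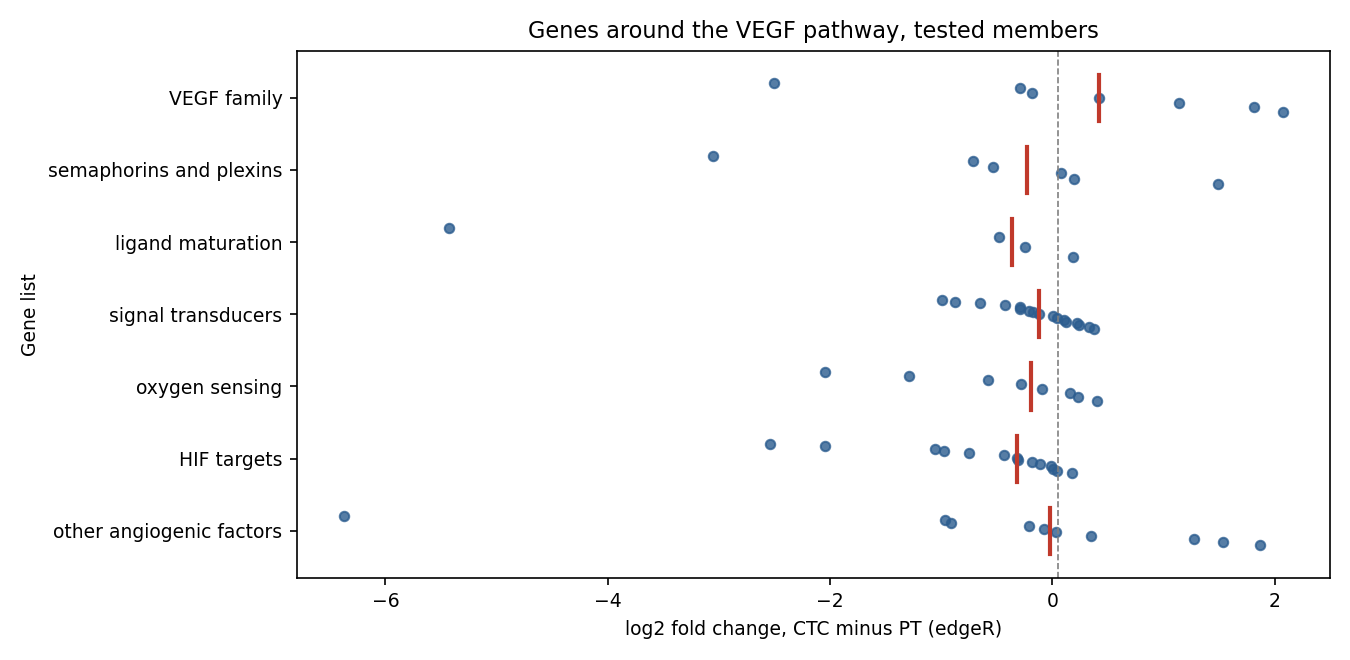
Log2 fold change (CTC minus PT, horizontal axis) of each tested gene (points) in 7 gene lists around the VEGF pathway, with the median of each list as a red line and that of all genes tested as a dashed line. The VEGF family spans -2.50 (Pgf) to 2.07 (Vegfc) around a median of 0.42, and the HIF targets lie mostly to the left, with a median of -0.31.

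Genes whose pattern over the 6 libraries was most like that of each member were ranked by Pearson's r of log2 CPM among 9395 protein-coding genes. The libraries share pairs and groups, so r is a description. For Pgf these were Plpp5 (r = 0.976), Sdr39u1 (0.975), Acox2 (0.967), Ccdc9 (0.966) and Ppip5k1 (0.966). Sdr39u1 was at 7.74 ± 4.99 CPM in CTC versus 18.7 ± 2.01 CPM in PT, and Acox2, a peroxisomal oxidase, at 7.49 ± 2.53 and 17.1 ± 3.00 CPM. Vegfa ran closest to Cacnb3 and Ppia (r = 0.979 and 0.975) and Vegfb to Naa38 and Suds3 (0.994 and 0.994). The genes nearest to Vegfc were Tnfaip2 and Pik3r5 (0.995 and 0.992), and Pik3r5 was at 29.6, 19.0 and 3.17 CPM in the CTC libraries, against 1.46, 5.83 and 0.126 CPM in PT, the same order of libraries as Vegfc. Flt1 was nearest to Lrp1 and Gng11 (0.959 and 0.958), Nrp1 to Arf4 and Lamb2 (0.997 and 0.996), and Nrp2 to Gcn1l1 and Ist1 (0.992 and 0.977).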

How the data were processed

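Counts of sequencing reads per Ensembl gene were deposited by the authors as 1 table of raw counts for 6 libraries, with a gene length in bases. Per the labels' protocols, 100 ng of total RNA entered an mRNA library kit. HISAT2 and the builds GRCm38 and mm10 are named per the submitters' processing notes; no source used here names the read counter, its strand setting or the annotation. All 8 members had the start and end of GENCODE M21.

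Levels are CPM on library totals and RPKM on the deposited gene length. CTC and PT were compared with edgeR 4.0.16 (R 4.3.3): TMM scaling, filterByExpr, glmQLFit and glmQLFTest, with Benjamini-Hochberg adjustment over all genes tested. Standard errors come from the F statistic, and log2 CPM from a prior count of 2. Alternatives were DESeq2 1.42.0, limma-voom 3.58.1, a replicate block, other scalings and filters, and leaving out libraries. The titles match each PT library to the CTC library of its number, and the design text speaks of matched mice, so the numbers pair the samples; deviations of paired libraries from their group means correlated across genes at -0.02, 0.16 and 0.30. Nothing states separate cultures beyond the mice. The tests were tested on simulated data with known changes. Each tool recovered large changes of well-counted genes where the simulated spread was small. At the spread of these libraries DESeq2 called more unchanged genes than edgeR did, and more again with the block. The simulated counts used the spread that edgeR estimated without the block, and held no pair effect.

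Members and lists were chosen with earlier results of these data known. From each list, genes were named by size of change at a mean log2 CPM of 3 or more (up to 2 each way) or a call. Genes that define cell types were named as well. Vegfd, Flt4, Ccbe1, Adamts3, Egfl7, Ecscr, Plvap, Eng, Tie1, Csf1r, Col3a1, Dcn, Ldha, Pgk1, Slc2a1, Bnip3 and the endothelial genes at 0 were named after their values were seen. Some genes that this rule names are not reported here. Macrophage genes summed to 57.8 to 82.5 CPM in CTC and 89.4 to 476 CPM in PT. Most came from Cd14, which epithelial cells also express, at 34.4 to 77.9 and 85.3 to 470.5 CPM. Its groups lay apart, with a log2 fold change of -2.18. Of the 4 tested genes of this list, DESeq2 called 1, Cd14 (adjusted p = 0.0342, and 0.726 in edgeR), against 0.571% of all genes. Csf1r reached 19.9 CPM in CTC replicate 2. Fibroblast and pericyte genes summed to 10.0 to 176 and 18.1 to 73.0 CPM (Col1a1 at most 44 and Pdgfrb at most 204 counts), lymphatic genes to at most 1.15 CPM (Prox1 at 0, Lyve1 at most 7 counts), and epithelial genes to 2310 to 5380 CPM.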

Additional observations from a re-analysis of the deposited data

How the results depend on the processing

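The count of genes called was 0 in edgeR as reported and stayed 0 with the replicate block, RLE or upper-quartile scaling, a filter of 1 CPM in 3 libraries, in limma-voom and without any single library or any matched pair. It was 89 in DESeq2, 241 in DESeq2 with the replicate block and 199 in edgeR without a filter on low counts. Of 119 alternative values for the 7 tested members, 113 kept their direction and side of the threshold, 4 passed it and 2 turned direction. Pgf passed in DESeq2 (log2 fold change -2.53), in DESeq2 with the replicate block (-2.71) and in edgeR without a filter (-2.49, adjusted p = 0.00668), and Vegfc in DESeq2 with the block (2.56). Vegfa turned to 0.14 without PT replicate 2, and Flt1 to -0.45 without replicate 3 of both groups, an alternative chosen after seeing the data. The causes were not tested. The replicate block in edgeR changed no call of a member. Leaving out single libraries gave ranges of -3.09 to -2.16 for Pgf, -0.36 to 0.14 for Vegfa, -0.41 to -0.20 for Vegfb, 1.41 to 3.44 for Vegfc, 0.04 to 3.26 for Flt1, 0.63 to 2.30 for Nrp1 and 0.10 to 0.76 for Nrp2. Groups of 3 limit these tests, and depth limits Kdr, which could not be tested.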
